A study of Mus musculus with 22 samples.

Results

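Mitochondrial ribosomal protein genes were followed in the epididymal fat of mice that breathed reduced oxygen for 6 hours. Members were the genes whose symbol in the array files begins with Mrpl (large subunit) or Mrps (small subunit) followed by a number, and that had a probe well above background in the sample channel on at least 10 of 22 arrays. The files hold 76 such genes and 76 met that limit, 47 named for the large subunit and 29 for the small one, of 16593 genes tested. They were read by 106 probes, of which 100 passed, and the probes lie on 17 chromosomes. None of the 76 genes changed past the test's threshold, as none of the 16593 did (0.00%). In loess-normalized values the 95% interval of all 76 stayed inside a 1.5-fold change in either direction, as it did for 96.7% of all genes, a bound that did not hold in values of another scale.

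The mice were males of the inbred strain C57BL/6JOlaHsd that came to the laboratory aged 10 weeks and were kept 1 per cage. Purified diets supplied 10% of the energy as fat in the first 3 weeks and 40% in the next 6 weeks, and a fast followed. Of these mice, 12 stayed at 20.9% oxygen (normoxia) and 10 were moved to 12% oxygen (hypoxia) for 6 hours in an indirect calorimeter. The treatment text also speaks of low-fat feeding without naming mice, so that diet was not modelled. Total RNA of the epididymal white adipose tissue, an abdominal fat pad, was labelled with Cy5 for each mouse and hybridised beside a Cy3-labelled pool of all samples, without a dye swap. Values are log2 ratios of Cy5 over Cy3, so that 0 is equal normalized signal of the mouse and the pool. All mice were wild type, and whole tissue was used, in which fewer cells of a type and less RNA per cell cannot be told apart.

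The mitochondrial ribosome translates the few messenger RNAs made inside the organelle, which code for core subunits of the respiratory chain and ATP synthase. Its ribosomal RNAs come from mitochondrial DNA, while all of its proteins are encoded in the nucleus, made in the cytosol and imported. Many of these proteins descend from bacterial ribosomal proteins, and others were added in mitochondria and have no bacterial counterpart. In adipocytes the organelle oxidises fatty acids and supplies acetyl units for fat synthesis.

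Probes of the same gene gave different values in several members, so the first 30 of the 60 bases are shown for the probe pairs of Mrpl40, Mrpl10 and Mrpl43. In each pair the first probe is the brighter one, which stands for the gene below. Capitals mark the run of 52 bases that both Mrpl40 probes share, as far as it falls into the printed stretch. The other pairs share no run of 20 bases and are in lower case.
Mrpl40, brighter probe: AAGTCTACTTTCCACAGACAAGTGAGTCAT
Mrpl40, other probe: gagatctaAAGTCTACTTTCCACAGACAAG
Mrpl10, brighter probe: cttgtgccaagcactctacagacacagatg
Mrpl10, other probe: attcacaatgacctccttggggacaggcct
Mrpl43, brighter probe: gaccttgtgaataccctaattctgattcaa
Mrpl43, other probe: ttggaccgtgagagggataggattggttcc
On mm9, the build of the files, the Mrpl40 probes lie on the minus strand at chr16:18872311-18872370 and chr16:18872319-18872378. The Mrpl10 probes lie on the plus strand at chr11:96910057-96910116 and chr11:96909769-96909828. The Mrpl43 probes lie on the minus strand at chr19:45079976-45080035 and chr19:45080116-45080175. Exon and UTR borders at these places were not analysed here.

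The promoters of these genes are known for short sites of the factors NRF1, GABPA (an ETS family protein) and YY1, which act on many nuclear genes of mitochondria. RefSeq windows from 250 bases before to 50 after the gene start (GRCm38.p6) were at hand for 67 of the 76 members. Exact matches on either strand were counted for an NRF1, an ETS and a YY1 motif, whose letters are the capitals in the lines that follow, and no match overlapped another in a member's window. To show what was counted, 30 bases around the match are printed for 4 members.
Mrpl32, NRF1: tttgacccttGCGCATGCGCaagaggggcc
Mrpl43, ETS: caaccccggaaCCGGAAGTcaccggttagt
Mrps22, ETS: aacctctcgagCCGGAAGTtgctctatcga
Mrps18a, YY1: ggtgcgttccAAGATGGCGGccctcagggc
The stretch of Mrpl32 is chr13:14613105-14613134 on the minus strand, and that of Mrpl43 is chr19:45006436-45006465 on the minus strand. The stretch of Mrps22 is chr9:98601672-98601701 on the minus strand, and that of Mrps18a is chr17:46111005-46111034 on the plus strand. The matches begin 87, 12 and 11 bases before the gene start in Mrpl32, Mrpl43 and Mrps22, and 11 bases after it in Mrps18a.

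At least 1 of these 3 motifs was present for 19 of the 67 members, or 28.4%, against 6.15% of 27025 genes in the promoter table and 12.4% of the 9873 tested genes with a window there. The ETS motif was present for 12 members, or 17.9%, against 4.31% of all genes in the table and 8.46% of the tested ones. YY1 matches were found for 5 members (7.46%, against 0.995% of the table and 2.29% of the tested genes). NRF1 matches were found for 3 members (4.48%, against 1.07% and 2.19%), all 3 of the large subunit. A match is only a run of letters, and no binding was measured. The 19 members with a match had a median difference between hypoxia and normoxia of 0.03 on the log2 scale, with 12 above 0, and the 48 without one had a median of -0.03, with 18 above 0.

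The arrays lay on 6 slides, plates that hold several arrays each. Between 15.6% and 76.8% of an array's spots were well above background in Cy5, and the value was below 19% only on slide 1, which held normoxia replicates 3 and 5 and hypoxia replicates 5 and 7. Slide 2 held normoxia replicates 9 and 10 alone, and the other slides held 2 mice of each group. Between 56 and 76 members were well above background on each array, 55 were so on all 22, and none was saturated. The number of arrays limits the precision. All 10 adipocyte markers tested, among them adiponectin and perilipin, were well above background on all 22 arrays. Of 12 genes known as targets of hypoxia-inducible factor, 11 were above 0 in hypoxia minus normoxia, with a median of 0.23 on the log2 scale, and none passed the adjusted threshold. At an unadjusted limma p under 0.05, 5 of the 12 were higher and 0 lower, against 2.57% and 2.72% of all genes. Differences of 0.35 to 0.60 were found for the 4 red blood cell markers tested, of 0.08 to 0.36 for the 8 mesothelial markers and of -0.78 to -0.06 for the 4 sperm markers, without an adjusted call. Of these, 3 red blood cell, 1 mesothelial and 0 sperm markers had an unadjusted p under 0.05. The 9 macrophage markers tested lay between -0.10 and 0.39, with 7 above 0 and the highest in C1qb. Of the 10 adipocyte markers 9 were above 0, with a median of 0.06. The single one below 0 was the receptor Adrb3, at -0.76 (limma p = 0.0070, adjusted p = 0.748). Their part in the members' values was not tested.

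The first comparison asked whether the members differed between hypoxia and normoxia. None of the 76 passed an adjusted p of 0.05 in limma's moderated test over all genes, where the background was 0.00% (0 of 16593 genes). The smallest adjusted p of a member was 0.944, and that of any gene was 0.0692. At an unadjusted p under 0.05 there were also 0 members, against 5.30% of all genes (879). By direction, 0 members were higher, against 2.57% of all genes, and 0 were lower, against 2.72%. The differences ran from -0.19 in Mrps31 to 0.14 in Mrpl46 on the log2 scale. In no member were the groups apart, and the same held for all genes tested (0.00%).

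In loess-normalized values the 95% interval lay inside a 1.3-fold change in either direction for 73 of the 76 members, against 82.1% of all genes. It lay inside a 1.5-fold change for all 76, against 96.7%. These counts depend on the scale: 3 of 76 lay inside 1.5-fold with median centring in place of loess (28.9% of all genes), 21 by the deposited value table (57.5%) and 69 by the scanner software's own log ratio (60.6%). The 3 members whose interval went past 1.3-fold were Mrpl27 (-0.40 to 0.13), Mrpl40 (-0.40 to 0.06) and Mrps31 (-0.38 to 0.001), each on the side of lower values in hypoxia. Second probes of Mrpl27 and Mrpl40 differed by -0.02 and 0.08. The median standard error was 0.092 for members and 0.098 for all genes.

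**Figure D1:**
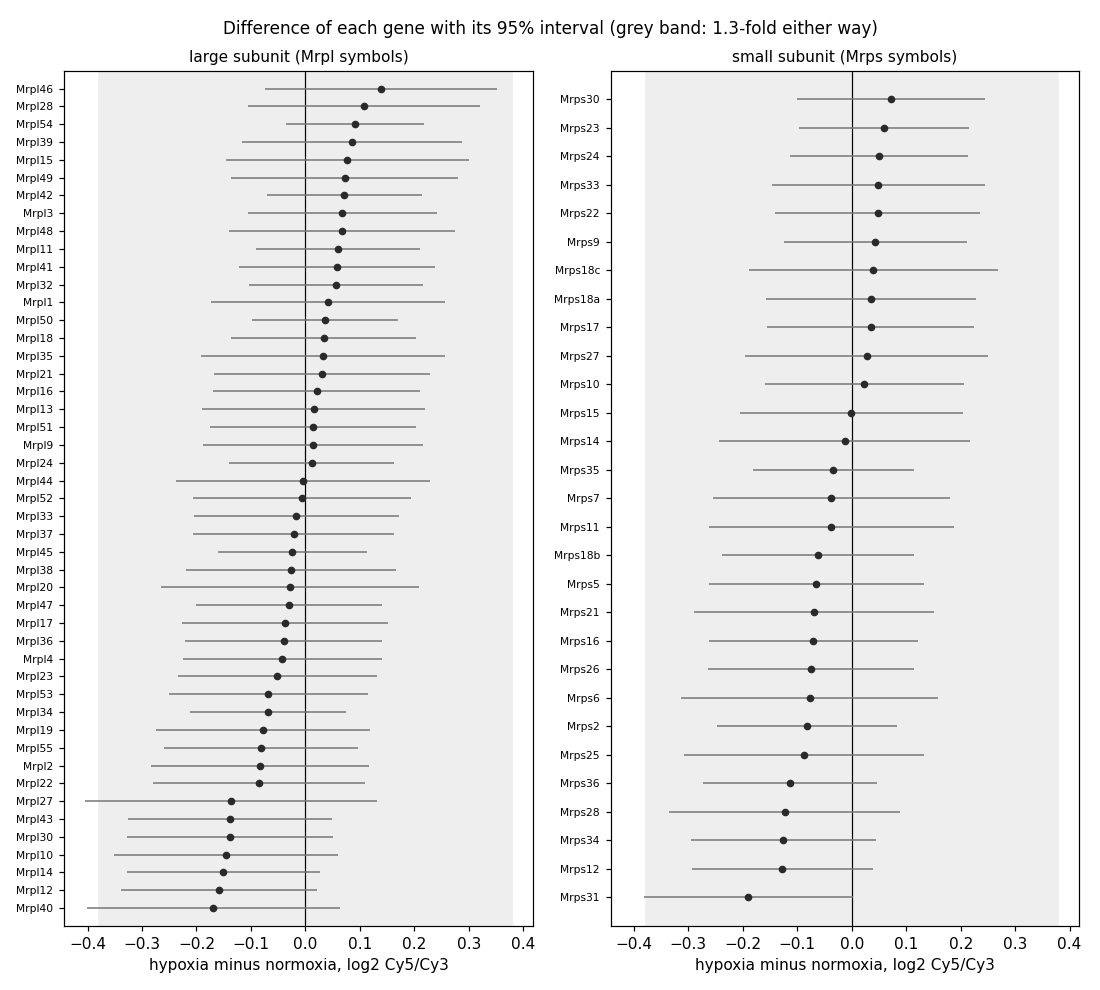
Hypoxia (n = 10) minus normoxia (n = 12) for each of 47 large subunit and 29 small subunit genes, as log2 Cy5/Cy3 with the 95% interval of limma's fit as a line. Every interval crosses 0, and 73 of 76 lie inside the grey band of a 1.3-fold change.

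In the large subunit 22 of 47 genes were above 0 and 25 below, with a median difference of -0.007 and a range of -0.17 to 0.14. In the small subunit 11 of 29 were above 0 and 18 below, with a median of -0.04 and a range of -0.19 to 0.07. Over all genes 50.4% were above 0 and the median was 0.001. These signs depend on the scale. With median centring in place of loess, 0 of 76 members were above 0 and the median of all genes itself was -0.21. By the deposited value table, 7 of 76 were above 0, and the median of all genes was -0.04.

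The stalk of the large subunit recruits the elongation factors and is built from Mrpl10, Mrpl11, Mrpl12 and, in mitochondria, Mrpl53 and Mrpl54. Mrpl12, which also binds the mitochondrial RNA polymerase, had a lowest, median and highest log2 ratio of -0.33, -0.14 and 0.43 in normoxia and of -0.68, -0.24 and -0.03 in hypoxia. The groups overlapped. Of the hypoxic mice, 9 of 10 were below the normoxic mean, which includes the 0.43 of normoxia replicate 9, with the next highest at 0.01. Its difference was -0.16 ± 0.09 (SE; limma p = 0.080, adjusted p = 0.952), with a within-slide difference below 0 on 4 of 5 slides.

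Mrpl10, which carries Mrpl12 on the ribosome, lay between -0.35 and 0.53 with a median of -0.15 in normoxia, and between -0.33 and 0.03 with a median of -0.25 in hypoxia. Its spread was wider in normoxia (SD 0.30, n = 12) than in hypoxia (SD 0.13, n = 10), a contrast that was not tested. The difference was -0.15 ± 0.10 (SE). Mrpl54 pointed the other way: it ran from -0.27 to 0.05 in normoxia and from -0.23 to 0.12 in hypoxia, with a difference of 0.09 ± 0.06 (SE). Mrpl11, at the base of the stalk, differed by 0.06 ± 0.07 and Mrpl53 by -0.07 ± 0.09 (SE). The 5 stalk genes thus had 2 differences above 0 and 3 below.

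Around the peptidyl transferase centre, where peptide bonds form, 3 of 7 genes were above 0 and 4 below, with a median of -0.04. Mrpl14, which binds the assembly factor Malsu1, ran from -0.40 to 0.12 in normoxia (median -0.02) and from -0.53 to 0.10 in hypoxia (median -0.27), and both groups covered nearly the same range. Its difference was -0.15 ± 0.09 (SE, limma p = 0.093). Mrpl27, whose bacterial relative reaches into the catalytic centre, had the largest spread among mice of all members, with a within-group SD of 0.33. It lay between -0.60 and 0.55 in normoxia (SD 0.35) and between -0.66 and 0.27 in hypoxia (SD 0.30), a difference of -0.14 ± 0.13 (SE). A second Mrpl27 probe, also well above background on all 22 arrays, had SDs of 0.14 and 0.26 in turn. It differed by -0.02 ± 0.09 (SE). Mrpl3, a gene mutated in some inherited cardiomyopathies, differed by 0.07 ± 0.08 (SE).

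At the polypeptide exit and the membrane anchor 2 of 9 genes were above 0, with a median of -0.03. Mrpl45, which ties the ribosome to the inner membrane, was among the steadiest members. It ran from -0.40 to 0.07 in normoxia and from -0.29 to 0.07 in hypoxia, with medians of -0.13 and -0.15, and its difference of -0.02 ± 0.07 (SE) had a 95% interval of -0.16 to 0.11. Mrpl44, a protein with a ribonuclease fold, differed by -0.005 ± 0.11 (SE).

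The central protuberance, a lobe at the top of the large subunit, had 4 genes above 0 and 3 below. It held the opposite ends of the large subunit. Mrpl46 had a lowest, median and highest value of -0.79, -0.03 and 0.25 in normoxia and of -0.35, 0.11 and 0.18 in hypoxia. The low end of normoxia was a single mouse, normoxia replicate 6, as the next lowest was at -0.46. Over all genes the median of that array was -0.20, the lowest of normoxia. The Mrpl46 difference was 0.14 ± 0.10 (SE, limma p = 0.190). Without that mouse no member's difference was above 0.10. Mrpl40 ran from -0.53 to 0.55 in normoxia (median -0.15) and from -0.76 to 0.07 in hypoxia (median -0.28), a difference of -0.17 ± 0.11 (SE) that its second probe did not share.

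Among large subunit genes of other places, Mrpl30 differed by -0.14 ± 0.09 and Mrpl43 by -0.14 ± 0.09 (SE). Mrpl30 ran from -0.58 to 0.05 in normoxia and from -0.68 to -0.10 in hypoxia. Mrpl43 ran from -0.29 to 0.22 in normoxia and from -0.45 to 0.36 in hypoxia, and its within-slide difference was below 0 on all 5 slides with both groups. Mrpl41, known also for a part in cell death, differed by 0.06 ± 0.09, and Mrpl20, with the next largest spread after Mrpl27, by -0.03 ± 0.12 (SE).

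In the head of the small subunit 3 of 7 genes were above 0 and 4 below. Mrps31, a head protein without a bacterial counterpart, had the smallest p of the members. Its values were -0.31, -0.05 and 0.42 (lowest, median and highest) in normoxia and -0.55, -0.26 and 0.08 in hypoxia, and the groups overlapped over most of their range. Its difference was -0.19 ± 0.09 (SE; limma p = 0.052, adjusted p = 0.944), with 7 of 10 hypoxic mice below the normoxic mean. Within slides it ran from -0.35 to -0.02. Mrps7, whose bacterial relative starts the assembly of the head, differed by -0.04 ± 0.11 (SE).

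At the decoding site and the messenger RNA channel 1 of 5 genes was above 0, with a median of -0.08. Mrps12, the protein of the decoding centre, ran from -0.54 to 0.11 in normoxia (median -0.22) and from -0.57 to -0.07 in hypoxia (median -0.28), with 9 of 10 hypoxic mice below the normoxic mean. The difference was -0.13 ± 0.08 (SE, limma p = 0.128), and 3 of 5 slides gave a value above 0. Mrps28, the relative of bacterial protein S1, differed by -0.12 ± 0.10 (SE). On the platform 1 of 6 genes was above 0, and Mrps6, with a within-group SD of 0.28, was the most variable gene of the small subunit.

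Mrps34, a small subunit protein without a bacterial counterpart, lay within -0.04 to 0.36 in normoxia and -0.29 to 0.33 in hypoxia. Its difference was -0.13 ± 0.08 (SE, limma p = 0.140), and the hypoxic mice were spread more widely (SD 0.24 against 0.12), which was not tested. Mrps16 and Mrps22, both mutated in inherited mitochondrial disease, differed by -0.07 ± 0.09 and 0.05 ± 0.09 (SE). The relatives Mrps18a, Mrps18b and Mrps18c, which descend from 1 bacterial protein, differed by 0.03 ± 0.09, -0.06 ± 0.09 and 0.04 ± 0.11 (SE).

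**Figure D2:**
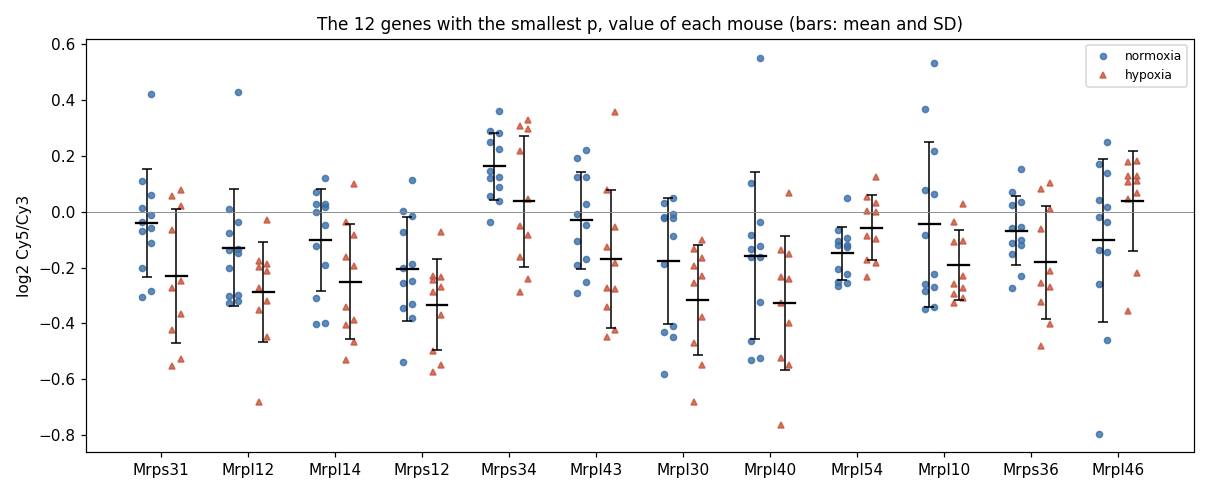
Log2 Cy5/Cy3 of each mouse for the 12 members with the smallest p, normoxia (circles, n = 12) beside hypoxia (triangles, n = 10), with the group mean and SD in black. The groups overlap in each of the 12 genes, and 10 of them have the lower mean in hypoxia.

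Some names do not follow the structure. Mrps30 and Mrps18a sit in the large subunit in structures of the ribosome, and both were just above 0 (0.07 ± 0.08 and 0.03 ± 0.09, SE). Mrps36 has been reassigned to the 2-oxoglutarate dehydrogenase complex of the citric acid cycle. It ran from -0.27 to 0.15 in normoxia and from -0.48 to 0.10 in hypoxia, a difference of -0.11 ± 0.08 (SE). The second Mrps36 probe differed by 0.03. With the first pair counted as large and Mrps36 as neither, the medians were -0.005 for the large and -0.04 for the small subunit.

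The members were also counted by descent. Of 30 large subunit genes with a bacterial counterpart 13 were above 0, and of 17 without one 9 were. In the small subunit the counts were 5 of 16 and 4 of 10. Mrps18b was placed among those 10, although it descends from a bacterial protein as its relatives do. Mrps18a, Mrps30 and Mrps36 were left out of these counts.

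The second comparison set the large subunit against the small one within each mouse. The mean over the 47 large subunit genes was -0.11 ± 0.10 (SD, n = 12) in normoxia and -0.12 ± 0.06 (SD, n = 10) in hypoxia. The mean over the 29 small subunit genes was -0.08 ± 0.06 in normoxia and -0.11 ± 0.08 in hypoxia (SD). Large minus small was -0.03 ± 0.06 in normoxia, from -0.15 in normoxia replicate 6 to 0.05 in normoxia replicate 7. In hypoxia it was -0.01 ± 0.03 (SD), from -0.06 to 0.04, all inside the range of normoxia. The balance of the subunits differed by 0.02 between the groups, less than the spread among the mice of either group.

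The slide means of the members lay further apart than the group means. The mean of all members was -0.20 over the 4 arrays of slide 1 and -0.14, -0.13, -0.07, -0.04 and -0.04 on slides 4, 5, 6, 3 and 2. Within slides, the median difference of the large subunit was 0.04 on slide 1, -0.06 on slide 3, 0.15 on slide 4, -0.04 on slide 5 and -0.03 on slide 6. That of the small subunit was -0.02, -0.05, 0.07, -0.001 and -0.03 in the same order. Slide 4 was thus the only slide above 0 in both subunits, and its median over all genes was also above 0, at 0.06. A difference below 0 on all 5 slides was found for 3 members (Mrpl43, Mrps25 and Mrps31), against 3.85% of all genes, and one above 0 on all 5 for 0 members, against 4.31%. Second probes of Mrpl43 and Mrps25 had group differences above 0, of 0.08 and 0.04.

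**Figure D3:**
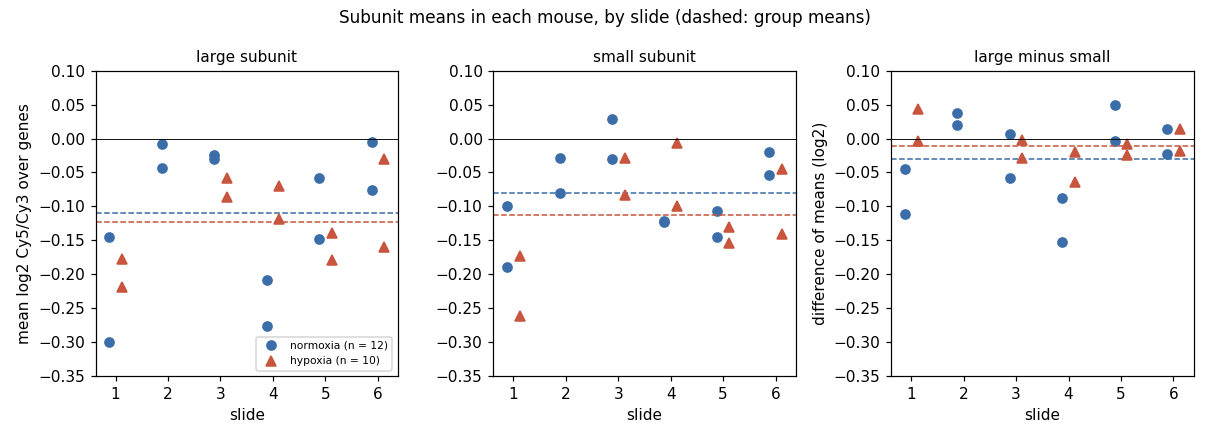
Mean log2 Cy5/Cy3 over large subunit genes, over small subunit genes and their difference for each mouse, by slide, with normoxia as circles (n = 12), hypoxia as triangles (n = 10) and group means as dashed lines. The hypoxic mice lie within the range of normoxia for large minus small.

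The means of the subunits moved together among the mice of a group. After the group means were taken off, the large and small subunit means correlated at r = 0.82 over 22 arrays. Single genes shared less: 69 of 76 correlated above 0 with the mean of the other members, 20 of them above 0.5, and the median r was 0.36. Between pairs of genes the median r was 0.17 within the large and 0.07 within the small subunit. The arrays share slide, depth and the Cy3 pool, whose part in these values was not tested.

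Of all genes outside the set, the 5 most like the mean of the members over the 22 arrays, by the same within-group r, were Prdx3 (0.85), Ap3b1 (0.83), Tspan7 (0.82), Uqcrc2 (0.81) and Asap1 (0.81). Prdx3 is the mitochondrial peroxiredoxin and Uqcrc2 a core subunit of respiratory complex III, while Ap3b1 belongs to a vesicle coat adaptor. With slide taken off as well, Prdx3 was at 0.87, Ap3b1 at 0.84, Uqcrc2 at 0.73, Asap1 at 0.59 and Tspan7 at 0.41. Their differences between hypoxia and normoxia ran from -0.12 in Tspan7 to 0.13 in Asap1, with no adjusted call.

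The mean log2 ratio was below 0 in both groups for 53 members and above 0 in both for 14. Of all genes, 51.4% were below 0 in both. The pool was made of these same samples, and there was no dye swap. A mean on the same side of 0 in both groups is therefore not read as a level apart from the pool. The group means of the members correlated at r = 0.90 across the 76 genes, which are no independent replicates and share the pool. Members varied slightly less among mice than most genes did: the within-group SD had a median of 0.21 (from 0.10 to 0.33), against 0.23 for all genes, and 51 of 76 were under that value. The steadiest were Mrpl54 (0.10), Mrpl50 (0.12) and Mrpl45 (0.13).

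For Mrpl34, Mrpl50 and Mrps35 the array carries the same probe 10 times, which shows how much of the spread lies within an array. The SD among spots of an array had a median of 0.12 in Mrpl34, 0.16 in Mrpl50 and 0.20 in Mrps35. The standard error of the spots' mean was then 0.045, 0.055 and 0.067. The SD between mice of a group was 0.14, 0.12 and 0.14, so that the error of the spots' mean was smaller than the spread of the mice. The other member probes were printed once, and in these 3 genes the SD of single spots was of the size of the SD between mice. Mrpl34, Mrpl50 and Mrps35 differed by -0.07 ± 0.07, 0.04 ± 0.07 and -0.03 ± 0.07 (SE), and their intervals are among the narrowest of the set.

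Second probes gave a check that the choice of the brighter probe did not use. In 22 genes 2 or more probes passed, which made 24 pairs with the brighter probe, and 10 pairs had differences of the same sign. The differences of a pair lay apart by a median of 0.085 and at most 0.30. The within-group r of a pair over the mice ran from -0.74 to 0.72 with a median of 0.19, and it was over 0.5 in 2 pairs.

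The Mrpl10 pair, whose sequences are shown above, had the widest gap. The brighter probe differed by -0.15 ± 0.10 and the other, which begins 288 bases away, by 0.15 ± 0.11 (SE). The other probe ran from -0.70 to 0.40 in normoxia (median -0.28) and from -0.43 to 0.27 in hypoxia (median -0.02). Although their group differences had opposite signs, the probes followed each other among mice, with r = 0.71. The lower mean of Mrpl10 in hypoxia, which had no adjusted call, was thus seen with 1 of its 2 probes.

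The Mrpl40 probes begin 8 bases apart and share 52 of their 60 bases, and still differed by -0.17 ± 0.11 and 0.08 ± 0.09 (SE), with r = 0.36. The other probe ran from -0.45 to 0.18 in normoxia and from -0.43 to 0.25 in hypoxia. Mrpl23 and Mrps18b also have probes that begin 5 bases apart and share 55 bases. Their differences were -0.05 ± 0.09 against -0.12 ± 0.12 in Mrpl23 (r = 0.30) and -0.06 ± 0.09 against 0.03 ± 0.11 in Mrps18b (SE, r = 0.38). Probes that read nearly the same bases were thus up to 0.25 apart in the group difference.

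In Mrpl43 the probes went in opposite directions among the mice, with r = -0.74, although they begin only 140 bases apart. The other probe differed by 0.08 ± 0.12 (SE), ran from -0.24 to 0.39 in normoxia and from -0.56 to 0.49 in hypoxia, and both probes were well above background on all 22 arrays. Mrps17 had the closest pair (r = 0.72), with differences of 0.03 and -0.03.

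**Figure D4:**
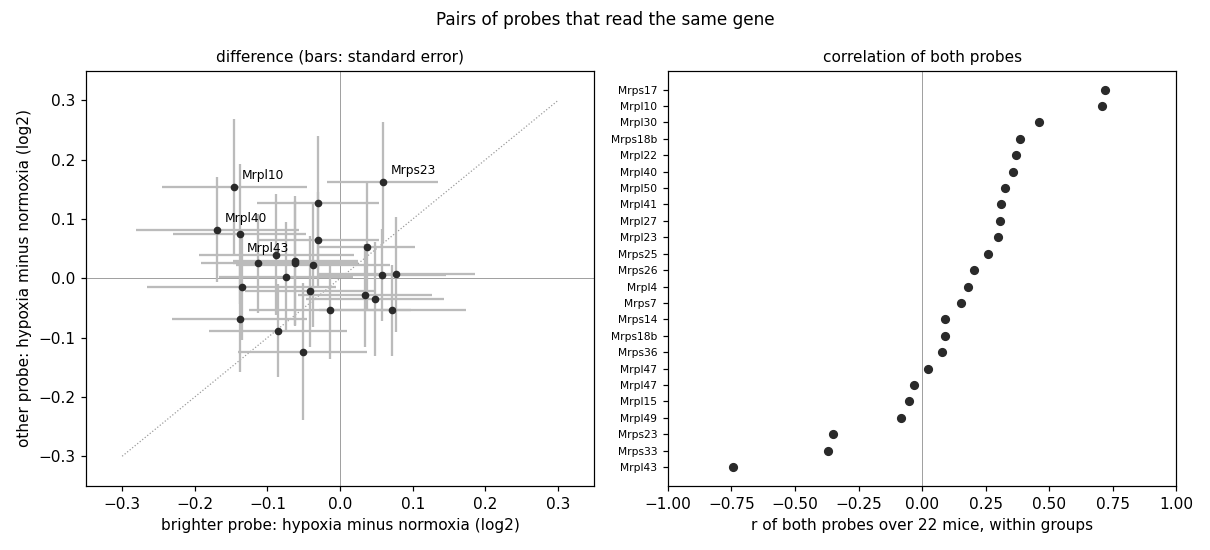
Left, hypoxia minus normoxia (log2) of the brighter and of the other probe for 24 pairs of probes in 22 genes, with standard errors as bars. Right, the within-group correlation of each pair over 22 mice, which runs from -0.74 in Mrpl43 to 0.72 in Mrps17.

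The third comparison took the partners of the mitochondrial ribosome, from lists of 7 kinds with 115 genes tested. None passed the adjusted threshold (background 0.00%), and at an unadjusted p under 0.05 there were 1 higher and 4 lower, or 5 of 115, beside 5.30% of all genes. The lists together had 55 differences above 0 and 60 below, with a median of -0.005.

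Ribosome proteins without an Mrp symbol in the files had 4 of 7 genes above 0. Chchd1, a small subunit protein, had the smallest p of them with -0.15 ± 0.08 (SE). Ptcd3, a pentatricopeptide repeat protein of the small subunit, differed by -0.09 ± 0.09, and Dap3, a GTP-binding small subunit protein, by 0.06 ± 0.10 (SE). Assembly factors and ribosomal RNA enzymes had 10 of 23 above 0. Tfb1m, which methylates the small ribosomal RNA, differed by -0.26 ± 0.12 (SE, limma p = 0.042, adjusted p = 0.922), and Rbfa, which matures the small subunit, by 0.14 ± 0.07 (SE). Tfb1m also followed the mean of the members among mice, at r = 0.78, and at r = 0.61 with slide taken off as well.

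Translation factors had 1 of 14 above 0 and 13 below, with a median of -0.05 and no p under 0.05. Lrpprc, which stabilises mitochondrial messenger RNAs, differed by -0.20 ± 0.12, and Mtif3, an initiation factor and the single gene above 0, by 0.17 ± 0.11 (SE). Tufm, the elongation factor that brings aminoacyl transfer RNA, differed by -0.06 ± 0.09 (SE). Of the aminoacyl-tRNA synthetases and amidotransferase subunits 13 of 20 were above 0. Gatb, a subunit of that amidotransferase, differed by 0.19 ± 0.08 and Tars2, which charges threonine, by -0.22 ± 0.10 (SE; limma p = 0.0305 and 0.0335 in turn, adjusted p = 0.880 and 0.892).

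Genes of mitochondrial transcription and RNA processing had 13 of 25 above 0, with Fastkd5 at 0.15 ± 0.08 and Nsun3 at 0.17 ± 0.10 (SE). Tfam, which packs mitochondrial DNA, differed by 0.08 ± 0.08, and Polrmt, the RNA polymerase, by -0.06 ± 0.09 (SE). Among 13 regulators of nuclear mitochondrial genes 6 were above 0. Esrra, a nuclear receptor that drives such genes with the coactivator Ppargc1a, had the smallest p of any partner. It differed by -0.26 ± 0.08 (SE; limma p = 0.0018, adjusted p = 0.510), and the within-slide difference was below 0 on all 5 slides, from -0.41 to -0.12. Nrf1, Gabpa, Ppargc1a and Sp1 differed by -0.06 ± 0.07, 0.12 ± 0.08, -0.04 ± 0.15 and 0.16 ± 0.09 (SE).

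The 13 proteins encoded in mitochondrial DNA are what this ribosome makes, and their transcripts had 8 differences above 0 and 5 below, with a median of 0.04. ND4L, a subunit of complex I, differed by -0.29 ± 0.11 (SE; limma p = 0.014, adjusted p = 0.830) and was lower on all 5 slides. ATP6, a subunit of ATP synthase, differed by 0.22 ± 0.12 (SE). COX1, a core subunit of complex IV, differed by 0.21 with an SE of 0.29, so that these transcripts were bounded less well than the ribosomal proteins.

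**Figure D5:**
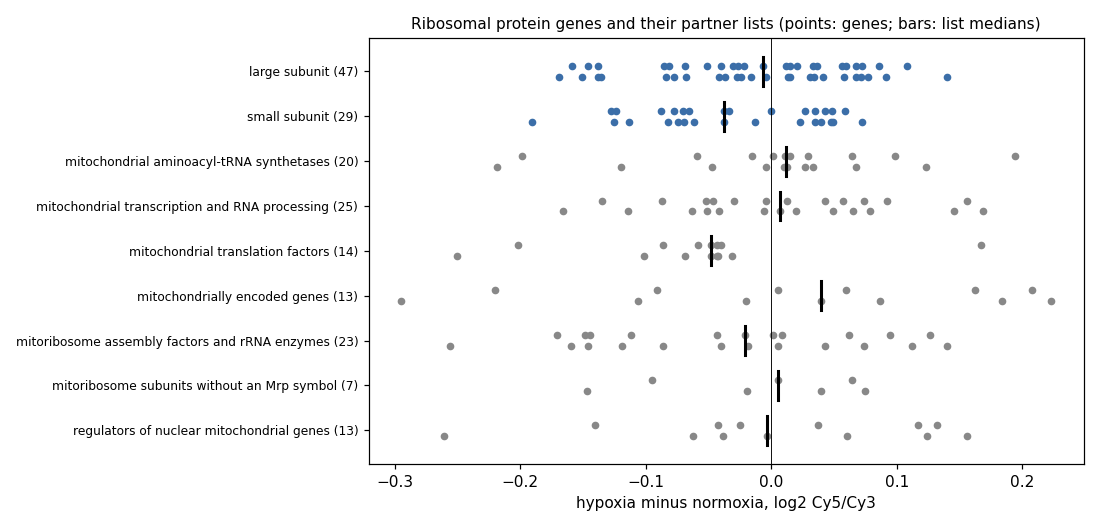
Hypoxia minus normoxia (log2 Cy5/Cy3) of each large and small subunit gene and of each gene in 7 partner lists, with the list median as a bar and the number of genes tested in parentheses. The list medians lie between -0.05 and 0.04, and no gene shown passed the adjusted threshold.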

How the data were processed

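The members, gene lists and tests were chosen with earlier results of these data known. Per the file headers, Agilent Feature Extraction 10.7.3.1 wrote the scanner files. The intensity values used, mean signals and local backgrounds, were deposited unnormalized. A log10 ratio in the same files, corrected for background and dye by that program per the file headers, served as an alternative. So did a deposited table of log2 levels, whose median is 6.299 on every array and which follows Cy5 more closely than Cy3 on 20 of 22 arrays. The authors' normalization of that table was not stated in the labels or headers read.

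Intensities were corrected with normexp (offset 50) and loess-normalized within arrays in limma 3.58.1 (R 4.3.3), with control spots at weight 0. Spots marked non-uniform or as population outliers were dropped and spots of a probe averaged. A probe was tested if its Cy5 signal was well above background on 10 or more arrays and each group had 2 or more values, and the brightest probe on average stood for a gene. Probes were named through RefSeq accession, symbol or synonym, or kept the name in the file. Groups were compared with lmFit and eBayes over 16593 genes with Benjamini-Hochberg adjustment, on scripts tested on simulated data. Slides were taken from the array barcodes.

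Genes named in the text are the 12 members with the smallest p, the 3 with the largest and the 3 with the smallest within-group SD, those with several tested probes (single values for the pairs that differ most or overlap), those with a described role, the 2 smallest p of each partner list with fixed partners, and the 5 genes most like the members' mean. Mrpl34, Mrps35, Mrpl53, Mrps25, Mrpl32, Mrpl19 and COX1 were added after their values were seen. Replicate numbers did not pair the mice: same-numbered mice correlated at -0.47 to 0.25 in their deviations from the group means, and 2 of 10 pairs were over 0.1. Alternatives were other background corrections, normalizations, filters, probe rules, slide and replicate blocks, array weights, subunit assignments and arrays left out.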

Additional observations from a re-analysis of the deposited data

Results flagged for a closer look

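Among 105 values tested for a mouse far from the others of its group of 10, 4 met that description, where chance gives about 1 in 20, or 5.2. Mrpl19 was at -0.51 in hypoxia replicate 8, with the other hypoxic mice between -0.08 and 0.23. Mrpl32 was at -0.53 in hypoxia replicate 5, with the others between -0.29 and -0.02. Mrps23 was at 0.47 in hypoxia replicate 10, with the others between -0.17 and 0.17. A second Mrps23 probe, with a within-group r of -0.35 to the first, had a highest hypoxic value of 0.24. Tfam was at -0.33 in hypoxia replicate 8, with the others between -0.04 and 0.21.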

How the results depend on the processing

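In 16 alternatives and in 22 fits that left out 1 mouse each, 0 members and 0 partners passed the adjusted threshold in limma. Of all genes, 0 to 4 passed in the alternatives and 0 to 3 with 1 mouse left out. Members at an unadjusted p under 0.05 numbered 0 to 2 in the alternatives and 0 to 3 with 1 mouse left out (3 without hypoxia replicate 4). The share of all genes at that limit was 0.43% to 9.11% in the alternatives and 4.06% to 6.36% with 1 mouse left out. Median centring in place of loess moved the median of the large subunit to -0.257 and of the small subunit to -0.269, as it moved that of all genes to -0.212; the cause was not tested. In the other settings the large subunit median ran from -0.081 (deposited value table) to 0.019 (slide as a fixed block), on both sides of 0, and the small subunit median from -0.073 (deposited value table) to -0.009 (without slide 1). Large minus small ran from 0.0007 to 0.039. With 1 mouse left out the medians were -0.022 to 0.016 for the large and -0.053 to -0.012 for the small subunit, and large minus small was 0.007 to 0.025. With the replicate number as a block, though it does not pair the mice, 0 members passed, the medians were 0.004 and -0.017, and large minus small was 0.019; no mouse correlated best with its own number. The sign of 49 of the 76 members changed in at least 1 alternative. Scaling between arrays after loess leaves ratios as they are.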
